A study of Mus musculus with 6 samples.

Results

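Cation-chloride cotransporters of the SLC12 family carry Cl- across the cell membrane together with Na+, K+ or both. NKCC1, the product of Slc12a2, couples Na+, K+ and Cl- and usually loads cells with Cl-, whereas the K+-Cl- cotransporters KCC1 (Slc12a4), KCC2 (Slc12a5) and KCC4 (Slc12a7) usually let K+ and Cl- out. WNK kinases sense Cl- and osmotic stress and activate the kinases SPAK (Stk39) and OSR1 (Oxsr1), which phosphorylate the cotransporters, so that NKCC1 is switched on and the KCCs are switched off. In choroid plexus (ChP) epithelium NKCC1 is known for its place on the membrane that faces the cerebrospinal fluid. The genes described here were 5 SLC12 transporters (Slc12a2, Slc12a4, Slc12a5, Slc12a7 and Slc12a9) and 4 kinases (Wnk1, Wnk4, Stk39 and Oxsr1). They were taken by symbol from a table of 24354 rows, and all 9 were found.

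Ribosome-bound mRNA was measured by TRAP-seq, in which ribosomes with a tagged subunit are pulled down and the mRNA on them is sequenced. Both ages carried the genotype FoxJ1:cre x bacTRAP (EGFP:L10a), so that the tag was made in cells where the promoter of Foxj1, a gene of cells with motile cilia, had driven Cre, and no untagged control is among the samples. Adult ChP (60 days by the labels, 8 weeks by the methods) and ChP of embryonic day 16.5 (E16.5) gave 3 samples each. The methods describe each sample as lateral ventricle ChP pooled from 3 mice or 3 litters, while the series text gives 3 mice at each age, so what 1 replicate stands for is not settled.

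Mapped reads per library are not stated. For each library the single-read step was the one that best fitted the low values among 2523 genes with 1 transcript. A library had 62 to 85 such low values, and 71.8% to 88.9% of them were within 0.1 of a whole read. As the step was chosen on these same values, this share is no separate check of it. By these steps the adult libraries were 1 to 2.86 times as deep as the shallowest, adult replicate 3, and the E16.5 libraries 4.03 to 5.09 times. One microRNA row, Mir6236, took 32.7% to 51.7% of the summed FPKM (read fragments scaled by transcript length and by the reads mapped in the library) in adult and 13.3% to 15.0% at E16.5. Of 10 epithelial markers of ChP, 9 were above 0 in every library, and Ttr was listed at 0 in all 3 E16.5 libraries. The epithelial markers summed to 38838 to 53660 FPKM in adult against 2661 to 2992 FPKM in the embryo, led by Ttr and Enpp2, but this counts Ttr as 0 at E16.5, and an exact 0 can be a failed estimate. Without Ttr the other 9 summed to 17916 to 22358 FPKM in adult libraries, most of it Enpp2, and to the same sums as before at E16.5. Of the 10, 4 rose and 1 fell, a count that takes the Ttr values as listed, and Folr1, Aqp1 and Otx2 were lower in every adult library. The 10 neuron markers summed to 92.3 FPKM in E16.5 replicate 1, to 5.70 and 0.403 in the other E16.5 libraries and to 2.25, 4.33 and 19.7 in adult. The 5 markers of oligodendrocytes and astrocytes summed to 73.0 FPKM in adult replicate 3, led by Mbp at 58.7, and to between 4.59 and 12.8 in the other libraries.

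For the other cell types, adult and E16.5 sums ranged over 0 to 1.43e-06 and 2.09 to 19.3 FPKM for 6 neural progenitor markers and over 13.3 to 21.9 and 57.7 to 69.3 FPKM for 6 of mesenchyme. They ranged over 0.435 to 18.5 and 12.3 to 40.0 FPKM for 6 of endothelium and over 0.0695 to 4.71 and 0.509 to 7.55 FPKM for 6 of macrophages. For 4 red cell genes they were 0 to 6.49 and 54.1 to 324 FPKM, and for 5 of the cell cycle 0 to 16.5 and 17.8 to 40.5 FPKM. Their part in the results was not tested, and the changes of the members without single libraries stand beside them where a call turns on one.

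FPKM were compared between the ages on log2(FPKM + 1) with limma over the 11601 genes whose mean was above 1 FPKM, with Benjamini-Hochberg adjustment across all of them. A gene is said to have risen or fallen where the adjusted p was under 0.05. Changes are adult minus E16.5. Of the 9 genes, 8 passed the filter on low values, and Slc12a5 did not. Slc12a2 and Slc12a4 rose, which is 2 of the 8, against 2.12% of all genes tested (10.9% were called in either direction). By limma 0 of the 8 fell, against 8.83% of all genes, and 1 of them (Wnk4) had a lower adult level at an unadjusted p under 0.05. In 3 of the 8 every adult library lay above every E16.5 library (7.39% of all genes), in 1 every adult library lay below (31.0% of all genes), and in 4 the ages overlapped. The median log2 change was 1.72 for the 4 transporters tested and -0.88 for the 4 kinases, beside -0.86 for all genes tested. In pulled-down tissue mRNA, fewer cells of a type and less RNA per cell cannot be told apart.

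**Figure D1:**
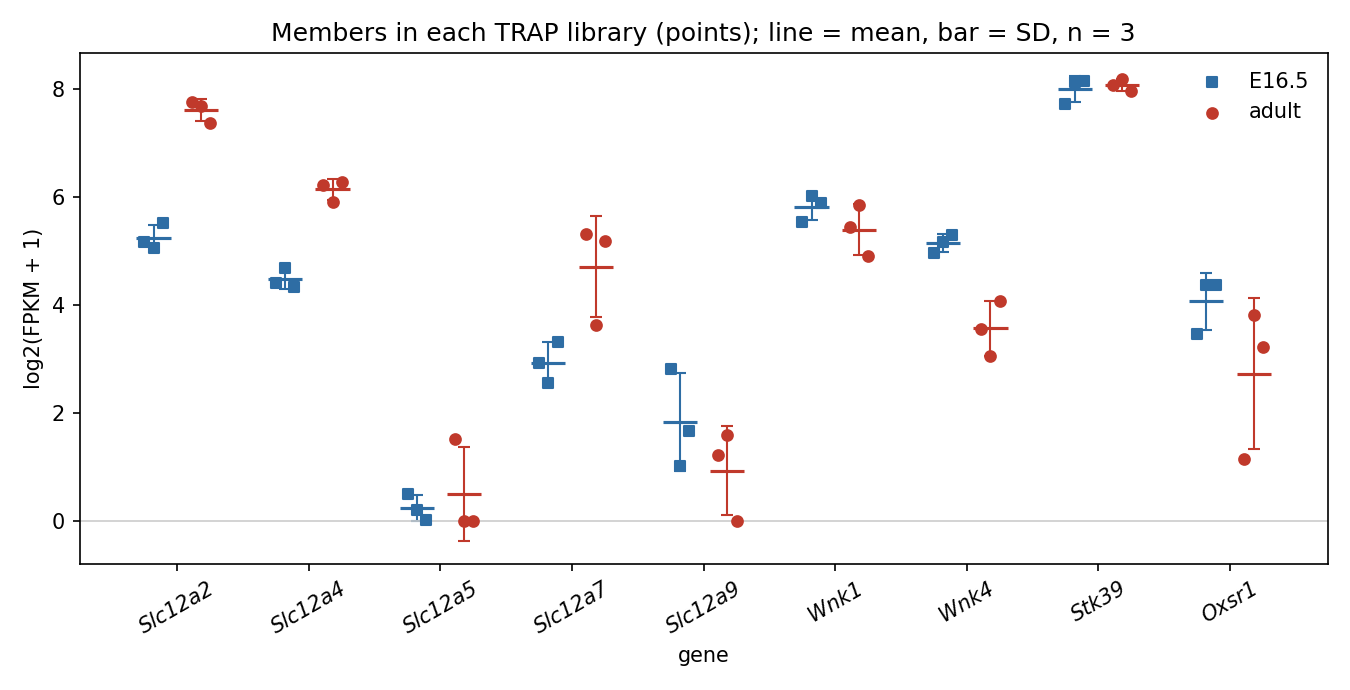
Level of each gene as log2(FPKM + 1) in the 3 E16.5 libraries (blue squares) and the 3 adult libraries (red circles), with the mean (line) and SD (bar). Slc12a2, Slc12a4 and Slc12a7 were higher in every adult library, Wnk4 was lower in every adult library, and Stk39 was the most abundant of the 9 at both ages.

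Slc12a2 stood at 216, 203 and 165 FPKM in adult libraries 1 to 3, against 35.0, 32.1 and 44.6 FPKM in embryonic libraries 1 to 3. Every adult library lay far above every E16.5 library, and the spread within an age was small beside the gap. Mean FPKM was 195 ± 26.7 for adult against 37.3 ± 6.54 for E16.5 (SD, n = 3 each). The change was 2.36 on the log2 scale (limma, standard error 0.28, adjusted p = 0.00558), a 5.13-fold rise with a 95% interval of 3.25 to 8.08. Its size moved with the scaling, to 1.54 on the log2 scale under same-sum rescaling (adjusted p = 0.0242), which is below that interval, and to 2.82 after quantile normalization (adjusted p = 0.00318). It lay 3.21 above the median of all genes, at the percentile 98.5 of their changes. With 3 samples against 3, the two-sided exact permutation test cannot go below p = 0.1, which is the value Slc12a2 reached. Without E16.5 replicate 1 or 2 the adjusted p was 0.0503 and 0.0559, while the change was 2.32 and 2.26, and only 57 and 43 of all genes were called.

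Slc12a4 encodes KCC1, the broadly expressed K+-Cl- cotransporter that serves cell volume. Its gene spans chr8:105943590-105966097 (mm10, minus strand) and overlaps the antisense gene Gm16156 and the microRNA gene Mir7074, and whether the authors' FPKM used strand is not stated. It stood at 73.7, 59.0 and 76.7 FPKM in adult libraries 1 to 3, against 20.1, 24.7 and 19.2 FPKM in embryonic libraries 1 to 3. The lowest adult value was more than the highest E16.5 value, with no overlap. From 21.3 ± 2.97 FPKM at E16.5 the mean rose to 69.8 ± 9.46 FPKM in adult (SD, n = 3 each). In limma this was a change of 1.66 on the log2 scale, with a standard error of 0.32 and an adjusted p of 0.0238. As a fold this is 3.17, with a 95% interval of 1.89 to 5.32. The call was lost without adult replicate 1 (adjusted p = 0.0523) and without any 1 of the E16.5 replicates 1, 2 and 3 (0.0856, 0.0744 and 0.0763), with changes of 1.60 to 1.77. It was also lost after rescaling to the same sum, where the change was 0.86 (adjusted p = 0.108). The same held with no intensity trend (adjusted p = 0.0515) and with replicate number as a block (adjusted p = 0.0659).

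Slc12a7 encodes KCC4, another K+-Cl- cotransporter of epithelia, at chr13:73733094-73816754 (plus strand). It stood at 38.6, 11.3 and 35.3 FPKM in adult libraries 1 to 3, against 6.60, 4.83 and 8.97 FPKM in embryonic libraries 1 to 3. The ages did not overlap, but adult replicate 2 lay close to the highest E16.5 library and apart from the other two adult libraries. The means of 28.4 ± 14.9 and 6.80 ± 2.08 FPKM (SD, n = 3 each) gave a difference of 1.78 on the log2 scale (95% interval 0.38 to 3.17, standard error 0.60), which did not pass the threshold (limma adjusted p = 0.0951). Without adult replicate 2 the change was 2.32 with an adjusted p of 0.0289, and it was 1.01 after rescaling to the same sum and 2.65 after quantile normalization.

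The starts of the K+-Cl- cotransporter genes that were higher in every adult library are shown next to that of Wnk4, which was lower in every adult library. Slc12a2, which also separated by age, has no sequence shown here, and its start was not examined. Each run is the 250 bases before the gene's start in RefSeq (build GRCm38.p6), 5′ to 3′, with matches to the GC box in capitals (GGGCGG, or CCGCCC where it lies on the other strand). The runs are chr8:105966116-105966365 (minus strand) for Slc12a4, chr13:73763410-73763659 (plus strand) for Slc12a7 and chr11:101260317-101260566 (plus strand) for Wnk4, and none overlaps an exon of the GENCODE annotation.
Slc12a4: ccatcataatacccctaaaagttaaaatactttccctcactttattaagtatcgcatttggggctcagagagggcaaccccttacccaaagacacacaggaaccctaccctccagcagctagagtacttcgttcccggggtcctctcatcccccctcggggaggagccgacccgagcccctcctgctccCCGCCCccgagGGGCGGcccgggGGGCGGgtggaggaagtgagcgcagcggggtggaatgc
Slc12a7: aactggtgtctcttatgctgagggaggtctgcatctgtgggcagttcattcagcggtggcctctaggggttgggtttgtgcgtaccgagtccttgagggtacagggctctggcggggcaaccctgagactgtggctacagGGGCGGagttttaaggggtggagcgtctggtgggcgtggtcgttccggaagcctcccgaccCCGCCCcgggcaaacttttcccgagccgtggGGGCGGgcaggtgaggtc
Wnk4: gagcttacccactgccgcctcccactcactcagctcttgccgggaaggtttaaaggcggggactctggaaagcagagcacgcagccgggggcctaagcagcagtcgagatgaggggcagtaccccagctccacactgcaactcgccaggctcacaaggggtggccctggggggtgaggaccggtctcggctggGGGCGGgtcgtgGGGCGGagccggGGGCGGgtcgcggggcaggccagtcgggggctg
Each of the 3 runs shown held 3 GC boxes, and 32.7% of 32851 RefSeq windows of this length held at least 1. The share of windows with 3 is not given here. Matches to CCAAT (33.8% of windows), TATAAA (12.4%) and TGTTTA, the core of forkhead sites (12.0%), were searched on both strands, and these letters were in none of the 3 runs. The runs held 13, 15 and 17 CpG in the order shown (percentiles 68.5, 72.7 and 76.5), beside a median of 6 over all windows. GC boxes were also in windows of members whose ages overlapped, 4 for Stk39, 4 for Wnk1, 1 for Oxsr1 and 1 for Slc12a9. Those windows held 43, 26, 21 and 16 CpG in this order, and those of Stk39, Wnk1 and Slc12a9 overlap annotated exons. The windows of Slc12a5 held 0 and 1 GC boxes. GC boxes and CpG were thus not particular to the genes that separated by age. The Slc12a7 run lies inside the span of the annotated gene. RefSeq gives another start of Slc12a7 close by, whose window (chr13:73763447-73763696) overlaps the run shown and held 6 GC boxes and 21 CpG, so the counts for Slc12a7 depend on the start taken.

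Slc12a5 encodes KCC2, which is known for keeping Cl- low in mature neurons, at chr2:164960802-164999731 (plus strand). It was listed at 1.84, 0 and 0 FPKM in the adult replicates and at 0.411, 0.141 and 0.0116 FPKM in the E16.5 replicates. Its mean over the 6 libraries of 0.401 FPKM was under the filter, so the gene was not tested. On its longest transcript of 6028 bases, adult replicate 1 would hold about 41.7 reads and the E16.5 replicates about 29.7, 12.9 and 0.987 reads. Of the neuron markers, 9 of 10 were listed at 0 in adult replicate 1, where Slc12a5 was highest. At E16.5 both Slc12a5 and the neuron markers were highest in replicate 1, where Tubb3 had 36.2 FPKM, Stmn2 25.3 and Rbfox3 2.47, and only 1 of the 10 was listed at 0. The part of neuronal RNA in these values was not tested.

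Slc12a9 is a distant member of the family with no settled ion transport, at chr5:137314558-137333597 (minus strand). It stood at 1.31, 1.99 and 0 FPKM in adult libraries 1 to 3, against 6.04, 1.01 and 2.18 FPKM in embryonic libraries 1 to 3. The ages overlapped, and E16.5 replicate 1 alone set most of the difference between the means. The log2 change of -0.90 (limma, standard error 0.76, adjusted p = 0.436) was -0.046 relative to the median of all genes. On the longest transcript of 3330 bases, 1 read was worth 0.104 FPKM in adult replicate 3. An exact 0 in this kind of estimate can also be a failed one.

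Stk39 encodes SPAK, the kinase that binds and phosphorylates NKCC1, at chr2:68210445-68472268 (minus strand). It stood at 270, 291 and 248 FPKM in adult libraries 1 to 3, against 209, 278 and 282 FPKM in embryonic libraries 1 to 3. The ages overlapped, at a level above 98% of the genes tested (percentile 99.0 in adult and 98.3 at E16.5). Mean FPKM was 270 ± 21.5 for adult against 256 ± 41.0 for E16.5 (SD, n = 3 each), and the log2 change was 0.085 (limma, standard error 0.24, adjusted p = 0.828). Its 95% interval of -0.47 to 0.64, or 0.722 to 1.56 as a fold, excludes the rise seen for Slc12a2. The sign of so small a change turned with the scaling, to -0.74 when each library was rescaled to the same sum of FPKM, to -0.078 when this was done without Mir6236, and to -0.055 without E16.5 replicate 1.

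Oxsr1 encodes OSR1, the close relative of SPAK, at chr9:119238432-119322427 (minus strand), where it overlaps Slc22a14 on the same strand. It stood at 1.21, 12.96 and 8.30 FPKM in adult libraries 1 to 3, against 9.97, 19.5 and 19.7 FPKM in embryonic libraries 1 to 3. Adult replicate 1 stood apart from the other adult libraries, and adult replicate 2 lay above E16.5 replicate 1. Means of 7.49 ± 5.92 and 16.4 ± 5.57 FPKM (SD, n = 3 each) gave a difference of -1.34 on the log2 scale (95% interval -3.17 to 0.49, standard error 0.79, limma adjusted p = 0.276). Without adult replicate 1 the change was -0.55.

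Wnk1 encodes the broadly expressed WNK kinase upstream of SPAK and OSR1, at chr6:119923969-120038672 (minus strand). It stood at 42.6, 56.3 and 28.8 FPKM in adult libraries 1 to 3, against 45.6, 63.7 and 57.9 FPKM in embryonic libraries 1 to 3. The ages overlapped. With means of 42.6 ± 13.8 and 55.7 ± 9.28 FPKM (SD, n = 3 each) the log2 change was -0.42 (95% interval -1.26 to 0.42, standard error 0.36, limma adjusted p = 0.447), which lies 0.44 above the median of all genes. The annotation holds 26 transcripts of Wnk1, which gene FPKM do not tell apart.

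Wnk4 encodes a WNK kinase best known from salt transport in the kidney, at chr11:101260567-101277409 (plus strand), where it overlaps the antisense gene Gm11615. It stood at 10.8, 7.31 and 15.8 FPKM in adult libraries 1 to 3, against 30.1, 35.0 and 38.1 FPKM in embryonic libraries 1 to 3. Every adult library lay below every E16.5 library. Mean FPKM was 11.3 ± 4.27 for adult against 34.4 ± 4.05 for E16.5 (SD, n = 3 each), and the log2 change was -1.58 (standard error 0.43, 95% interval -2.58 to -0.57). This missed the threshold (limma adjusted p = 0.0570), and relative to the median of all genes the change was -0.72, at the percentile 29.7. Without adult replicate 3, which had the highest adult value and the markers of oligodendrocytes, the change was -1.83 with an adjusted p of 0.0230. The threshold was also passed under same-sum rescaling (-2.36, adjusted p = 0.0122), among genes above 0 in every library (adjusted p = 0.0491) and with sample weights (adjusted p = 0.0299).

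**Figure D2:**
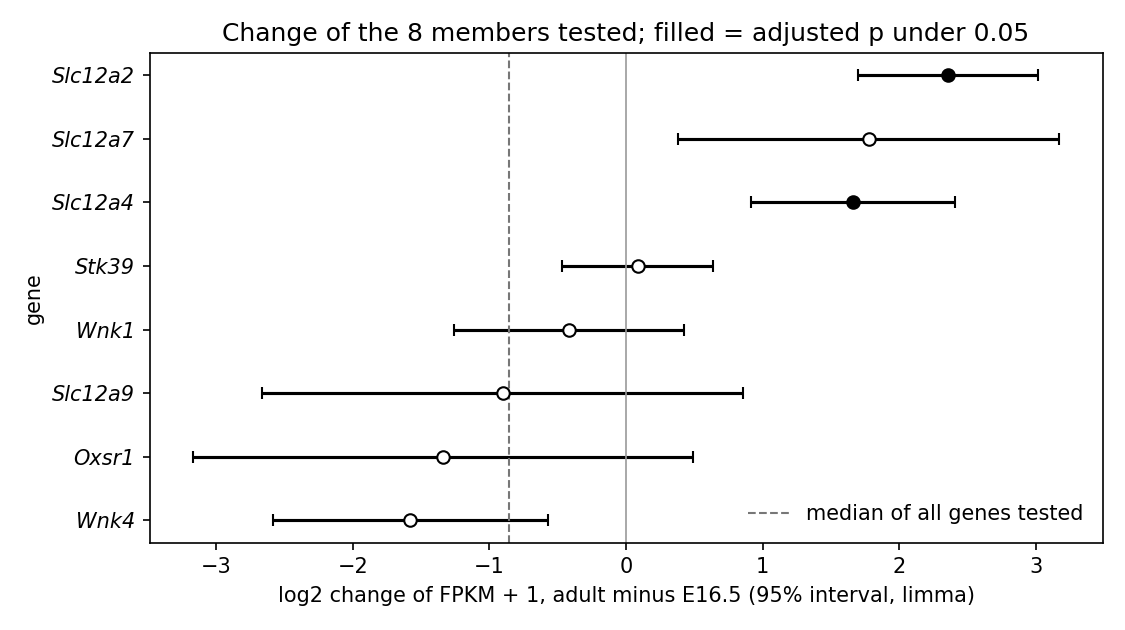
Log2 change of FPKM + 1, adult minus E16.5, for the 8 genes tested, with 95% intervals from limma, where filled points passed an adjusted p of 0.05. The dashed line is the median of all genes tested at -0.86. Slc12a2 and Slc12a4 passed, and the intervals of Stk39, Wnk1, Slc12a9 and Oxsr1 include 0.

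The median of all genes moved with the scaling, from -0.86 with FPKM as deposited to -0.58 under median-ratio scaling, -1.47 after rescaling to the same sum, -0.99 after the same without Mir6236 and -0.15 after quantile normalization. Among all genes called, 19.4% were higher in adult with FPKM as deposited, and 34.5%, 3.56%, 12.8% and 50.9% under these scalings in the same order. Relative to the median, Slc12a2 stayed 2.74 to 3.86 higher, Slc12a4 2.04 to 3.18 and Slc12a7 2.16 to 3.39 over the 17 alternatives run (16 for Slc12a9, which was not above 0 in every library). Stk39 stayed 0.46 to 1.56 above the median, and Wnk4 0.19 to 1.20 below it. Wnk1 lay between -0.038 and 1.05 of the median, Slc12a9 between -1.53 and 0.42 and Oxsr1 between -0.96 and 0.31, so that these 3 had no fixed side.

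**Figure D3:**
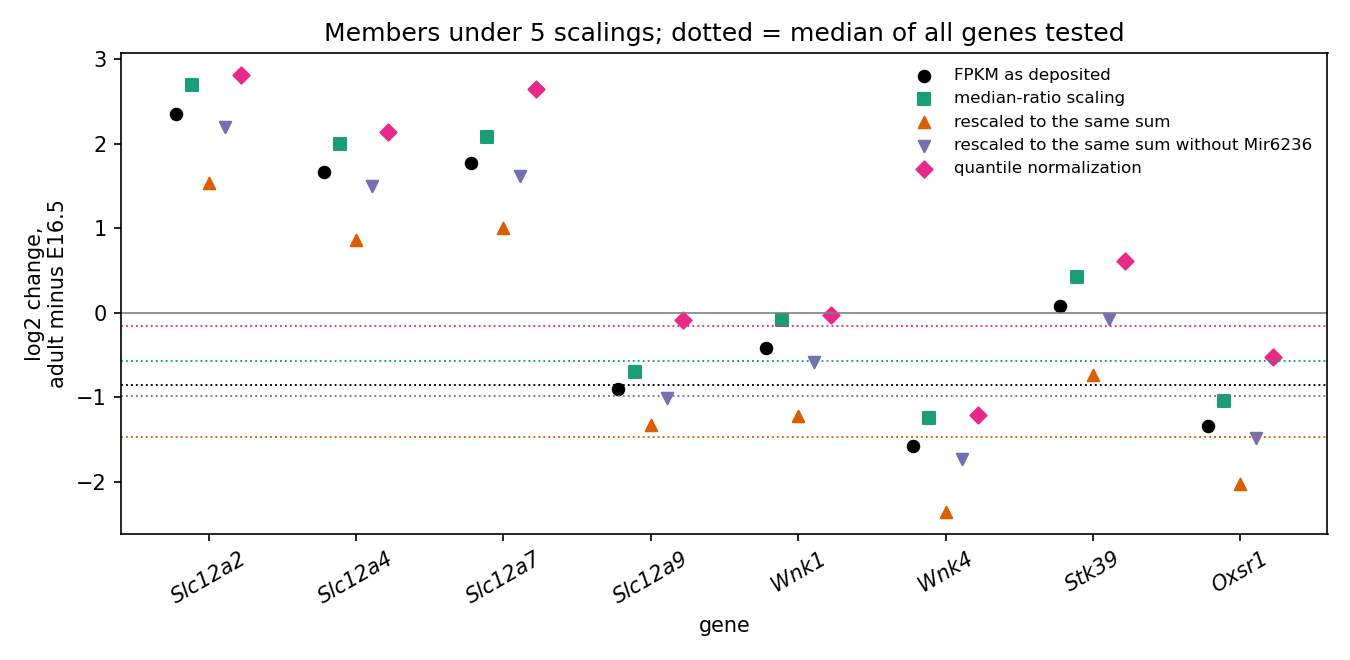
Log2 change, adult minus E16.5, of the 8 genes tested under FPKM as deposited and 4 other scalings (colours and shapes), with the median of all genes under each scaling as a dotted line of the same colour. Slc12a2, Slc12a4 and Slc12a7 lay above 0 and above the median under each of the 5, Wnk4 lay below both under each, and Stk39 ranged from -0.74 to 0.61, below 0 after both same-sum rescalings.

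Levels can be set beside each other because FPKM are per length. In adult the order by mean FPKM was Stk39, Slc12a2, Slc12a4, Wnk1, Slc12a7, Wnk4, Oxsr1, Slc12a9 and Slc12a5. The libraries of the first 3 did not overlap with those of the next gene in this order, and from Wnk1 downwards each gene overlapped with the next. At E16.5 the order was Stk39, Wnk1, Slc12a2, Wnk4, Slc12a4, Oxsr1, Slc12a7, Slc12a9 and Slc12a5. Here Slc12a2 overlapped with Wnk4, Slc12a4 with Oxsr1 and Slc12a7 with Slc12a9, and the other neighbours did not overlap. Slc12a2 thus stood below Wnk1 at E16.5 and above it in adult.

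Linear ratios between genes of a library are the same whatever single factor scales that library, whereas quantile normalization, or the 1 added before log2, can shift them. They are given without a test since the genes were chosen with results known. The FPKM of Slc12a2 per FPKM of Stk39 was 0.799, 0.699 and 0.664 in the adult replicates and 0.168, 0.116 and 0.158 in the E16.5 replicates. The ages did not overlap, and on log2(FPKM + 1) the ratio was higher in adult by 2.27. Stk39 per Oxsr1 was 224, 22.5 and 29.9 in adult and 20.9, 14.2 and 14.3 at E16.5, which did not overlap either, although the first value rests on the low Oxsr1 of adult replicate 1. Without that library the difference in log2 ratio was 0.63, against 1.43 with it.

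Slc12a2 over the sum of the 3 K+-Cl- cotransporters was 1.89, 2.89 and 1.47 in adult and 1.29, 1.08 and 1.58 at E16.5. The ages overlapped, and the mean log2 ratio was 0.99 ± 0.49 in adult and 0.37 ± 0.27 at E16.5 (SD, n = 3 each). Slc12a4 over Slc12a7 was 1.91, 5.20 and 2.17 in adult and 3.04, 5.12 and 2.14 at E16.5, again with overlap. Wnk1 over Wnk4 was 3.95, 7.70 and 1.82 in adult and 1.51, 1.82 and 1.52 at E16.5. Adult replicate 3 lay within the E16.5 range by log2(FPKM + 1), and the other two adult libraries lay above it.

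**Figure D4:**
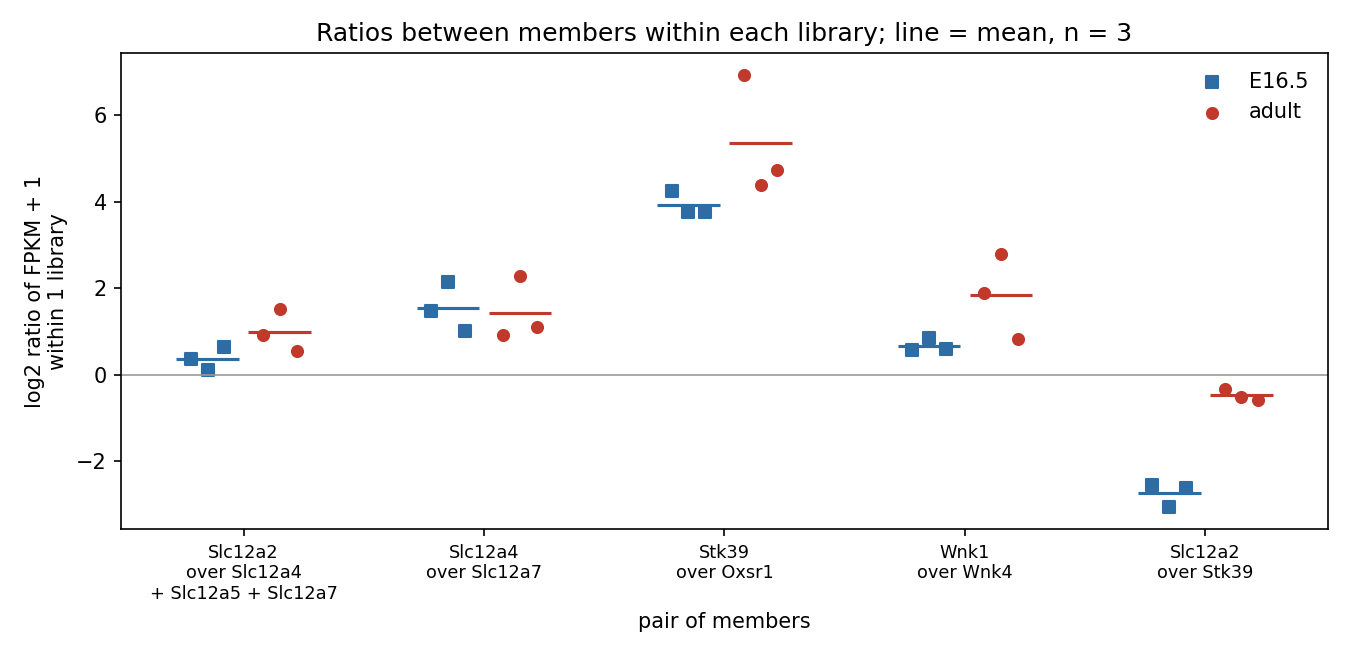
Log2 ratio of FPKM + 1 between genes within each library, for E16.5 (blue squares) and adult (red circles), with the mean as a line (n = 3). Slc12a2 over Stk39 and Stk39 over Oxsr1 did not overlap between the ages, and the other 3 ratios did.

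The SLC12 family as a whole, with 9 genes in the table, summed to 337, 283 and 277 FPKM in the adult replicates and to 73.3, 70.7 and 81.5 FPKM in the E16.5 replicates. Slc12a2 made up 65.1% ± 6.31 of this sum in adult and 49.4% ± 4.83 at E16.5 (SD, n = 3 each), without overlap between the ages. Slc12a4 made up 23.5% ± 3.72 and 28.7% ± 5.82, and Slc12a7 9.40% ± 4.72 and 8.95% ± 2.08. Slc12a1 and Slc12a3, the NKCC2 and NCC transporters of the kidney, were each listed at 0 in all but 1 or 2 libraries, and Slc12a8 was listed at 0 in all 6.

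Of a wider list of 22 genes that act on or with these transporters, 18 were tested. Of these, 2 rose (background 2.12%) and 2 fell (background 8.83%), with a median log2 change of -1.07. Among those that rose was Atp1b1, the beta subunit of the pump that keeps up the gradients NKCC1 runs on. Atp1b1 stood at 361, 490 and 369 FPKM in adult libraries 1 to 3, against 112, 126 and 110 FPKM in embryonic libraries 1 to 3. Every adult library lay above every E16.5 library, with a change of 1.79 on the log2 scale (limma adjusted p = 0.00801). It did not pass under same-sum rescaling (0.96, adjusted p = 0.0643), nor without E16.5 replicate 1, 2 or 3.

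The 2 that fell were Nedd4 and Ppp1ca. Nedd4, a ubiquitin ligase related to the ligase that acts on the kidney transporter NCC, stood at 245, 271 and 265 FPKM in adult libraries 1 to 3, against 554, 522 and 693 FPKM in embryonic libraries 1 to 3 (log2 change -1.17, limma adjusted p = 0.0234). Ppp1ca, a catalytic subunit of protein phosphatase 1, stood at 67.3, 64.1 and 30.7 FPKM in adult libraries 1 to 3, against 167, 150 and 165 FPKM in embryonic libraries 1 to 3 (log2 change -1.63, limma adjusted p = 0.0326). Relative to the median of all genes these changes were -0.31 and -0.78. Neither was called under median-ratio scaling or quantile normalization, with no intensity trend, with replicate number as a block, nor without E16.5 replicate 1, 2 or 3.

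The scaffold proteins that activate SPAK and OSR1 are encoded by Cab39 and Cab39l. Cab39l stood at 263, 230 and 269 FPKM in adult libraries 1 to 3, against 117, 157 and 134 FPKM in embryonic libraries 1 to 3, without overlap (log2 change 0.90, limma adjusted p = 0.0537). Cab39 overlapped between the ages, at 23.4 to 55.5 FPKM in adult against 18.9 to 32.5 FPKM in the embryo. Among the other WNK kinases, Wnk2 overlapped (log2 change -0.85) and Wnk3 had at most 1.37 FPKM in adult against 1.59 to 2.50 FPKM in the embryo.

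Degradation of WNK kinases runs through the Cul3 ligase with Klhl2 or Klhl3 as its adaptor. Cul3 had 65.1 to 177 FPKM in adult against 81.4 to 100.4 FPKM in the embryo, with overlap. Klhl3 was listed at 0, 6.86 and 0 FPKM in adult and had 13.4, 16.4 and 27.2 FPKM at E16.5 (log2 change -3.27, limma adjusted p = 0.0636). Rbx1, the ring subunit of the ligase, stood at 14.2, 7.30 and 0 FPKM in adult libraries 1 to 3, against 58.0, 48.8 and 34.5 FPKM in embryonic libraries 1 to 3 (log2 change -3.23, limma adjusted p = 0.0718). In both, every adult library lay below every E16.5 library, as in 31.0% of all genes tested, and the values at 0 were in the shallow adult libraries 1 and 3 for Klhl3 and in adult library 3 for Rbx1. Sgk1, a kinase upstream of the Nedd4 family, overlapped between the ages, at 68.2, 157 and 156 FPKM in adult and 64.5, 85.3 and 76.5 FPKM at E16.5.

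The water channel gene Aqp1 stood at 68.6, 168 and 123 FPKM in adult libraries 1 to 3, against 254, 262 and 226 FPKM in embryonic libraries 1 to 3. Every adult library lay below every E16.5 library, with a log2 change of -1.13 (limma adjusted p = 0.0797) that is -0.27 relative to the median of all genes.

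**Figure D5:**
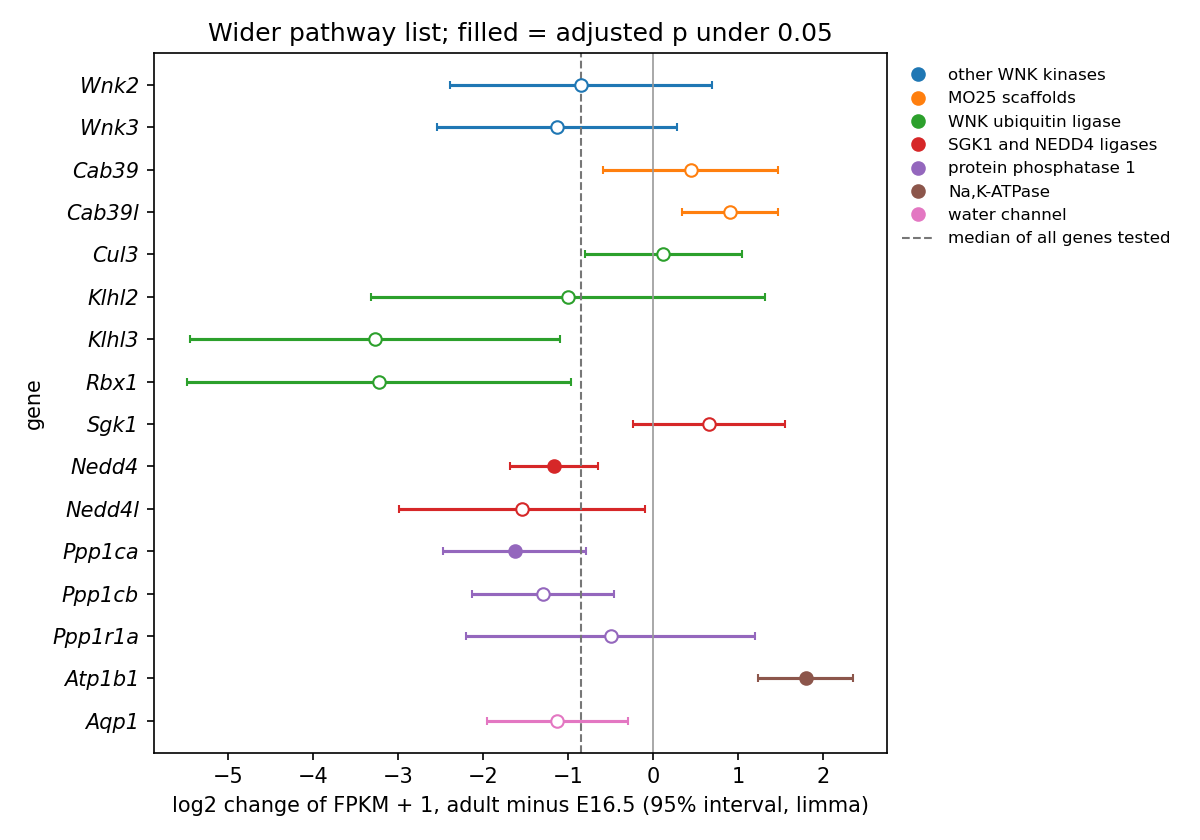
Log2 change of FPKM + 1, adult minus E16.5, for tested genes of the wider list, coloured by role, with 95% intervals from limma, where filled points passed an adjusted p of 0.05 and the dashed line is the median of all genes tested at -0.86. Atp1b1 passed above 0, and Nedd4 and Ppp1ca passed below 0, at -0.31 and -0.78 relative to the dashed line.

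The genes most like Slc12a2 were sought by Pearson's r of log2(FPKM + 1) over the 6 libraries, among 4918 other genes above 0 in every library with a mean of at least 10 FPKM. Among the 5 nearest were Maob (r = 0.997), Arsb (0.997), Tns1 (0.997) and Sqstm1 (0.996), given as a description with no p because the 6 points fall into 2 ages that also differ in depth. Maob, the gene of monoamine oxidase B, had 120 ± 19.8 FPKM in adult against 5.51 ± 2.07 FPKM in the embryo (SD, n = 3 each). Arsb, the gene of a lysosomal sulfatase, had 43.3 ± 6.97 and 6.88 ± 1.55 FPKM, and Sqstm1, the gene of an autophagy receptor, had 499 ± 48.0 and 241 ± 19.5 FPKM. By the same measure Slc12a4 had an r of 0.953 with Slc12a2 and stood at place 139, and Slc12a7 had an r of 0.836 at place 452. Wnk4 had an r of -0.938.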

How the data were processed

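The authors aligned 50-base single-end reads to mm10 with STAR (2.4.0) and deposited gene FPKM made with Cuffquant of Cufflinks, and no annotation or further scaling is named in the sources used here. The read counts behind their test are not used here. Samples were grouped by age from their titles. The members and lists were chosen with earlier results of these data known. The deposited FPKM, with a pseudocount of 1 and on the log2 scale, went into limma (version 3.58.1, R 4.3.3, intensity trend, no covariates), over genes with a mean FPKM above 1, with p adjusted by Benjamini-Hochberg to 0.05. Where nothing says that samples came from separate animals, p-values measure only the spread between these samples. The script was tested on simulated data. The genes named are all 9 members, the wider list (those past the threshold and the most abundant of each role), the 5 genes most like Slc12a2 and leading markers. Some items that this rule would name are not reported here, though they are in the counts. Some other genes of the wider list are named as well, chosen after their values were seen.

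Depth was read from single-read steps, with transcripts over 1000 bases shortened by 200, and reads of members assume the longest transcript. Gene positions are from GENCODE M21 on mm10 and promoters from RefSeq GRCm38.p6. The alternatives were 4 scalings, pseudocounts of 0.1 and 0.01, 2 filters, no trend, sample weights, a replicate block and each library left out in turn.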

Additional observations from a re-analysis of the deposited data

How the results depend on the processing

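Over the 17 alternatives the rise of Slc12a2 kept its direction in all and its call in 15, and that of Slc12a4 kept its direction in all and its call in 10. With each library left out in turn, the log2 change was 2.26 to 2.49 for Slc12a2, 1.59 to 1.78 for Slc12a4, 1.48 to 2.32 for Slc12a7, -1.83 to -1.32 for Wnk4 and -0.055 to 0.16 for Stk39. The calls of Slc12a4 ended under same-sum rescaling (0.86, adjusted p = 0.108), without an intensity trend (1.66, adjusted p = 0.0515) and with a replicate block (1.66, adjusted p = 0.0659). Wnk4 was called under same-sum rescaling (-2.36, adjusted p = 0.0122), among genes above 0 in every sample (-1.58, adjusted p = 0.0491) and with sample weights (-1.73, adjusted p = 0.0299). Stk39 turned to -0.74 and -0.078 after rescaling to the same sum with and without Mir6236. Of the genes described, 1 rose after rescaling to the same sum, without a trend and with the replicate block, and 0 to 3 rose with a library left out. Over all 11601 genes tested, 120, 158 and 112 rose under these settings in the same order, against 246 with FPKM as deposited. With a library left out, 27 to 357 of all genes rose. The number that fell was 1 after rescaling to the same sum, among genes above 0 in every sample and with sample weights, and 0 to 1 with a library left out. Over all genes, 3254 of 11601, 451 of 6562 and 1303 of 11601 fell under these settings, against 1024 of 11601 with FPKM as deposited. With a library left out, 16 to 1704 of all genes fell. In the wider list the number that rose was 0 after rescaling to the same sum, 1 without a trend and 0 to 2 with a library left out. The number that fell was 0 under median-ratio scaling, quantile normalization, no trend and the replicate block, 6 and 5 after rescaling to the same sum with and without Mir6236, 4 with sample weights and 0 to 5 with a library left out. The number over all 11601 genes also moved. It was 660, 449, 949 and 452 under median-ratio scaling, quantile normalization, no trend and the replicate block. After rescaling to the same sum it was 3254 with Mir6236 and 1334 without, and it was 1303 with sample weights. The log2 ratio of Slc12a4 over Slc12a7 was -0.11, and -0.54 to 0.19 with a library left out. The cause of these moves was not tested.

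Adult and E16.5 samples of the same number deviated together little (r = 0.000895, 0.0439 and 0.0150 for numbers 1, 2 and 3). Pairs of unlike number ranged over -0.0292 to 0.0135. Whether samples of the same number shared a preparation is not stated, and values this small cannot settle it. The replicate block moved the calls among all genes from 1270 to 564. Without E16.5 replicate 1, 2 or 3 the calls were 57, 43 and 112, and without adult replicate 1, 2 or 3 they were 687, 1923 and 1721. They moved to 1008 and 915 under median-ratio scaling and quantile normalization, with same-sum rescaling to 3374 and with the restriction to genes above 0 to 722. The low depth of the adult libraries limits the genes with values near 0, which are Slc12a5, Slc12a9 and Klhl3.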
